A study of Mus musculus with 4 samples.

Results

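This account describes the baseline RNA profile of the sorted control preproB cells, measured on 2 of the 4 arrays in the series. Both arrays carrying the control label were taken (control replicate 1 and control replicate 2, n = 2), and the arrays of the enhancer-deleted cells were not analysed here. The mice were C57BL/6 animals with loxP sites around the Cebpa enhancer at +37 kb, written Enh(f/f), and they had no Mx1-Cre, so the enhancer was present. They had received 3 doses of pIpC, an interferon-inducing mimic of viral double-stranded RNA, and bone marrow was collected 5 weeks after that. The cells had been sorted as lineage-negative, B220+, CD43+, BP1- and CD24-. By the labels control replicate 1 was female and 26 weeks old and control replicate 2 male and 24 weeks old, so the labelled sex and age differ between the arrays. How many cells or mice went into a sample is not given in the sources used here.

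Pre-pro-B cells are among the earliest cells of the B lineage in bone marrow. They carry B220, an isoform of the protein tyrosine phosphatase encoded by Ptprc, and CD43, the sialoglycoprotein encoded by Spn, before the heavy-chain genes are fully rearranged. Plasmacytoid dendritic cells (pDCs), which secrete type I interferon on sensing viral nucleic acids, also carry B220 in the mouse. They depend on the transcription factors Tcf4, Irf8 and Spib. On bulk RNA, fewer cells of a type and less RNA per cell cannot be told apart.

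Each array measured 39429 probes on 43020 non-control spots in 1 colour. Levels are the scanner's background-corrected processed signal, in arbitrary units, and in each pair of values below the control replicate 1 value stands before that of control replicate 2. A probe counts as detected where the scanner's software marked it well above background, and the dimmest such probes had signals of 14.4 and 13.7. Counts of detected genes in a list are of genes detected on both arrays. They stand beside 58.4% of all genes and 64.4% of genes named through RefSeq. Counts in the top 10% of signals stand beside 9.74% and 10.1%. A gene was read by its brightest probe and ranked among 31659 genes on each array, and its percentile is the share of genes below it, averaged over both arrays. Of these genes, 18716 and 19302 were detected (59.1% and 61.0%), with a median signal of 47.9 and 52.1. No spot was saturated, and the number of arrays limits the precision.

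Brightness depends on the probe as well as on the RNA. Probes were compared in 4210 genes named through RefSeq with more than 1 probe, at least 1 of them detected on both arrays. The brightest and dimmest probe of a gene differed by a median of 7.31-fold, and 80.6% of these genes had probes at least 2-fold apart. With only the probes detected on both arrays, in the 3385 genes with more than 1 such probe, the median was 5.14-fold. The order of genes below is therefore an order of signals, and no fold between genes is given. Between the arrays the same probe was far steadier, with 95% of detected genes within 1.44-fold of each other after scaling.

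The probe sequences are shown because some of the brightest signals came from probes that hold common repeated words. In the stretches of probes below, capitals mark words of 14 bases that occur, on either strand, in the RefSeq (GRCm38.p6) promoters of at least 10 genes, so that copies of the word lie at many places in the genome. The marker probes have no such words apart from the second of the Siglech probes:
Siglech, brightest probe: acaacagttaaattcccttgcagagacatc
Siglech, second probe: GCTACACAGAGAAACtctgtctcAAAGAAA
Bst2: aggtgaactctggcagctccatggtggtct
Irf8: aacagacagggtcgacagagtgtgtgatac
Dntt: aagcgcatcaatgcccacctgactcctgtg
The probes of 3 lineage genes and of 3 genes among the brightest of all held such words, and a second Itgam probe is shown for contrast:
Csf3r: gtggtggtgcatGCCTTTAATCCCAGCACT
Itgam, brightest probe: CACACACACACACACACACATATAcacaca
Itgam, second probe: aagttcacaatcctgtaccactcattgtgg
Cd4, brightest probe: gcccactcCCCACTCCTGCTTCCTGAgctg
Elk1, brightest probe: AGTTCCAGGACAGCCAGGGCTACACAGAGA
Medag, brightest probe: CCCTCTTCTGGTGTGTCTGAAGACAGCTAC
Exosc2: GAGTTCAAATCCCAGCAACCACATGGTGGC
Each line gives 30 of the 60 bases of a probe, 5′ to 3′. In build mm9 the brightest Siglech probe lies at chr7:63033826-63033885 and the second at chr7:63034088-63034147. The Bst2 probe lies at chr8:74058603-74058662, the Irf8 probe at chr8:123280324-123280383 and the Dntt probe at chr19:41133936-41133995. Without an annotation of that build, the exons and UTRs that these probes hit were not determined.

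Probes with at least 5 such words, called repeat-word probes here, numbered 578, or 1.47% of probes, and 517 genes were read by one. Their median signal was 4251 against 51.8 over all probes, and 93.3% of them were detected on both arrays against 58.9% of all probes. These words were found in promoters and not by placing probes on a genome, so a repeat-word probe may still read its named gene, and a probe without such words may still bind other RNA. Of 213 genes with a repeat-word probe and at least 1 other probe, the brightest repeat-word probe was the brighter in 165, by at least 2-fold in 153, and the other probe in 48. The other probe was detected on both arrays in 140 of the 213, and its median signal was 172 against 6122 for the repeat-word probe. Kctd14 (2766 and 3220) and Cxcl11 (10069 and 10842) had other probes that were well detected. Slc10a1, a bile acid transporter of the liver, gave 391351 and 405769 from its repeat-word probe, while its other probe was not well above background. The second Elk1 probe gave 34.3 and 43.8 where the repeat-word probe gave 372398 and 384189, and for the coagulation factor gene F10 the other probe gave 32.0 and 24.8 where the repeat-word probe gave 335017 and 337133. Some genes used as lineage markers also had such probes. For Itgam, the integrin chain of Mac-1, the repeat-word probe gave 8373 and 8053 and the other probes gave 63.2 and 54.2, and 22.4 and 26.4. For Cd4 the repeat-word probe gave 8914 and 8801 and the other gave 181 and 221. Csf3r, the receptor for granulocyte colony-stimulating factor, has a single probe, at 85377 and 97495, which held 5 words and so sits at the threshold.

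**Figure D1:**
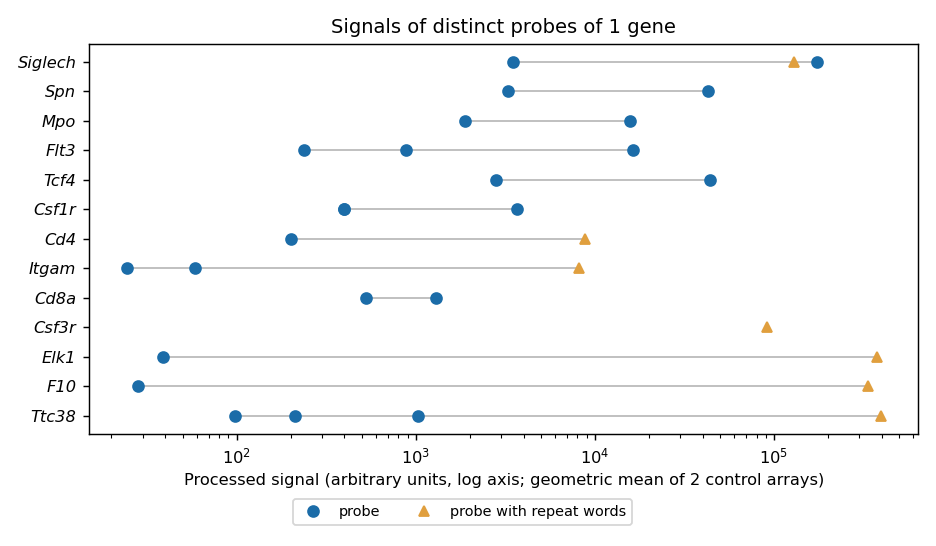
Signal of each distinct probe of 13 genes on a log axis, as the geometric mean of the 2 control arrays; circles are probes and triangles are repeat-word probes, joined by a line for each gene. The repeat-word probes of Elk1, F10 and Ttc38 lie far to the right of the other probes of these genes, while the brightest Siglech probe is not a repeat-word probe.

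All 8 marker genes were detected on both arrays, against a background of 58.4% of all genes and 64.4% of genes named through RefSeq. Of the 8, 7 lay in the top 10% of signals on both arrays, against 9.74% of all genes and 10.1% of those named through RefSeq. The brightest was Irf8, the interferon regulatory factor of dendritic cells and monocytes, with signals of 288860 and 290293, which ranked 33rd and 32nd of all genes. Bst2, the surface protein tetherin, gave 179196 and 184928, and Siglech, a sialic acid-binding lectin of pDCs, gave 169857 and 177653. These 3 genes lay at percentiles 99.5 to 99.9. The other Siglech probes gave 128462 and 130071 (the repeat-word probe) and 3334 and 3677, all detected.

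The 5 other markers were dimmer. Dntt, which encodes the terminal transferase of V(D)J joining, gave 46657 and 45566. Spn gave 40604 and 45770 from its brighter probe and 3068 and 3461 from the other, both detected. With the brighter Spn probe, the order of these 2 genes changed between the arrays. Vpreb1, a part of the surrogate light chain, gave 14283 and 23537, the least steady of the 8. Mpo, the myeloperoxidase of neutrophil granules, gave 13685 and 18170 from its brighter probe and 1546 and 2313 from the other. Ptprc was the dimmest by the brightest probe of each gene, at 3707 and 4546 (percentile 85.6). Its probe was not worked out by isoform and so does not measure B220 itself. No marker differed by 2-fold or more between the arrays.

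Both genes of the positive gate were detected. Of the genes behind the negative gate, Enpep, which encodes BP1, was not well above background on either array. Cd24a, which encodes CD24, was detected at 4779 and 6366 (percentile 88.0). The gate acts on surface protein, which the arrays do not measure.

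**Figure D2:**
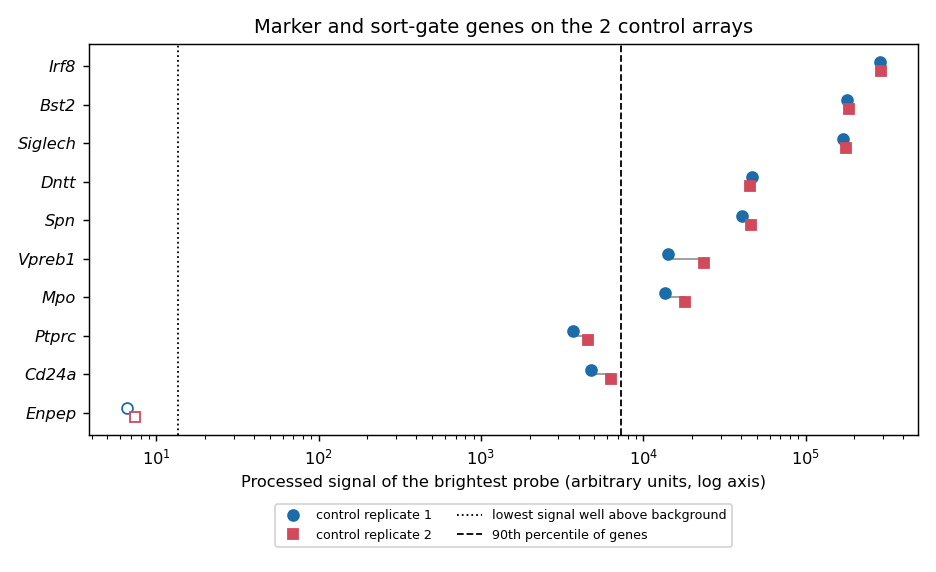
Processed signal of the brightest probe of the 8 marker genes and of Cd24a and Enpep on each control array, on a log axis; filled symbols are well above background, open symbols are not, and the dashed line is the mean 90th percentile of genes on the arrays. Irf8, Bst2 and Siglech lie to the right near the top of the range, and Enpep lies left of the dotted line that marks the lowest signal well above background.

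Genes known for their level in pDCs were mostly bright, in a list chosen with earlier results of these data known. All 31 genes of the pDC list were detected on both arrays and 25 lay in the top 10%. The median percentile was 96.2, against 49.9 over all genes, and the lowest member, the adhesion molecule Cadm1 (347 and 333), lay at 64.2. Of the 44 probes of these genes, 43 were detected on both arrays. The list shares 12 of its 31 genes with other lists. The 19 that it does not share had a median percentile of 96.1, and 17 of them lay in the top 10%.

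Several pDC genes are best known from other tissues or pathways, and some of these were among the brightest of the list. Cox6a2, the muscle-type subunit of cytochrome c oxidase, gave 156806 and 157467. Plac8 gave 161611 and 169597 from the brighter of 2 probes, which differed 15.6-fold. Upb1, a beta-ureidopropionase of pyrimidine breakdown, gave 98494 and 97556. The adaptor Pacsin1, which serves the interferon response of pDCs, gave 26054 and 26564, and the kallikrein Klk1 gave 28054 and 32805. Both lay near the list median of 96.2 (percentiles 96.1 and 96.5). Ly6d, a surface marker of lymphoid progenitors that pDCs also carry, gave 184799 and 172263. Cd209d, a C-type lectin related to DC-SIGN, was the one member of the list outside the 1.44-fold range that held 95% of genes, at 48948 and 30276.

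The pDC regulators were bright by their brightest probes. Spib, an ETS factor, gave 87372 and 84914, and Tcf4, the E protein that pDCs require, gave 42152 and 46090 from one probe and 2587 and 3070 from the other. Bcl11a, a zinc-finger factor of B cells and pDCs, gave 25170 and 26978 from the brighter of 2 probes, which differed 2681-fold. Zeb2, which restrains Id2 in this lineage, gave 7267 and 7763 from the brighter of 2 probes, which differed 29.4-fold. Runx2, which acts in the exit of pDCs from bone marrow, gave 2185 and 2709 from one probe and 21.7 and 20.7 from the other, and Irf7, the interferon regulator, gave 2245 and 3251.

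**Figure D3:**
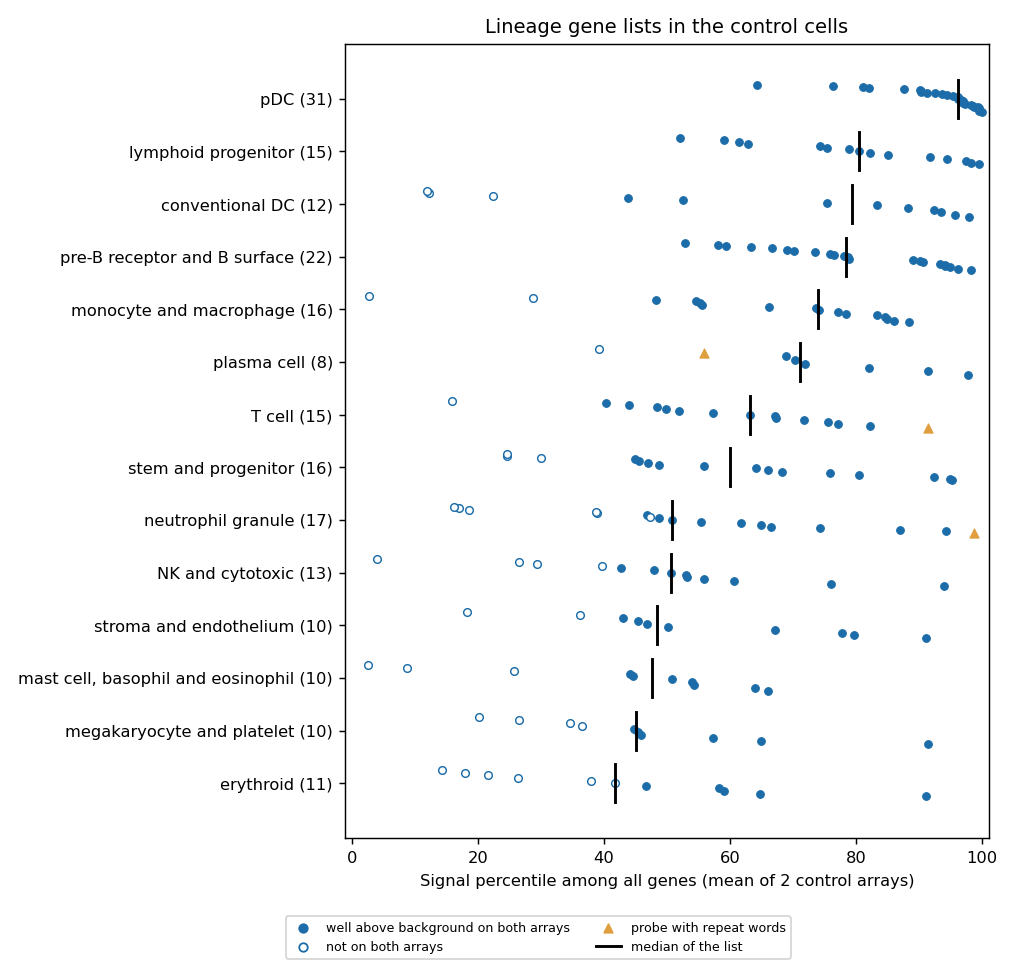
Signal percentile among all genes, as the mean of the 2 control arrays, for each gene of 14 lineage lists, with the number of genes on the array in brackets; filled circles were detected on both arrays, open circles were not, triangles are repeat-word probes and bars are list medians. The pDC list has its median furthest right at 96.2, and the erythroid list has its median furthest left at 41.7. The pDC list, the lymphoid progenitor list and the pre-B receptor and B surface list have no open circle.

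The other dendritic genes were mixed. Of the 12 genes of the conventional dendritic cell list, 9 were detected (75%, against 58.4% of all genes) and 4 lay in the top 10%. The median percentile of the 12 was 79.3. The lectin Clec10a was the brightest, at 56132 and 67408. Itgax, which encodes CD11c, gave 21354 and 23085, and Sirpa, a marker of the cDC2 branch, gave 12351 and 14333. Clec9a, the cDC1 receptor for dead cells, gave 4908 and 6585. Some defining genes were low or not detected. Zbtb46, a factor of conventional dendritic cells, gave 27.4 and 21.5, Batf3, a factor of the cDC1 branch, gave 61.2 and 77.8, and the cDC1 chemokine receptor Xcr1 was not well above background.

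Antigen presentation genes were detected throughout, with 10 of 10 in class II and 10 of 10 in class I. The class II chain H2-Ab1 gave 164978 and 184383, the invariant chain Cd74 gave 81723 and 86022, and 7 of the 10 class II genes lay in the top 10%. The class II transactivator Ciita gave 397 and 465, from a repeat-word probe. In class I, H2-K1 gave 202663 and 231623 and B2m gave 143033 and 180501. The transporter gene Tap1, at 961 and 1319, was the dimmest of the 10. A probe may also bind the RNA of a near-identical family member, so values of H2, Klk1, Cd209, Vpreb, Lyz, Ifna and globin genes may mix copies.

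Genes of lymphoid progenitors were all detected, 15 of 15, with 5 in the top 10% and a median percentile of 80.5. Ly6d and Dntt, given above, were among the brightest. Flt3, a receptor tyrosine kinase of early progenitors and dendritic cells, gave 16546 and 15976 from its brightest probe and 946 and 822, and 246 and 228, from the others. Il7r, the receptor chain that early B cells depend on, gave 8657 and 10207. Rag1, which cuts the immunoglobulin genes, gave 1034 and 1612, and its partner Rag2 gave 201 and 272. Each was read by the brighter of 2 probes, which differed 24.0-fold for Rag1 and 15.7-fold for Rag2. Both recombinase genes thus lay well below Dntt in percentile (75.4 and 61.4 against 97.4).

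The list of pre-B receptor and B surface genes was detected in full, 22 of 22, with 6 of them in the top 10%, with a median percentile of 78.4. The brightest by processed signal were signalling genes. The adaptor Blnk, which pDCs also carry, gave 74187 and 75743, and the kinase Syk gave 27438 and 27458. The authors' deposited log2 values were 16.2 and 16.1 for Blnk but only 11 and 10.9 for Syk. Among the surrogate light chain genes, Igll1, which encodes lambda5, gave 1370 and 2600, Vpreb2 gave 1426 and 2438, and Vpreb3 gave 10279 and 16156. The receptor chains gave 1229 and 1746 for Cd79a and 14490 and 15816 for Cd79b. Genes of later stages were dim. Ms4a1, which encodes CD20, gave 390 and 561, and Fcer2a, which encodes CD23, gave 71.6 and 69.8.

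Among 21 B-lineage factors, 20 were detected on both arrays. Pax5, which commits cells to the B lineage, was detected on 1 of 2 arrays at 14.6 and 20.5, close to the detection limit, and its second probe read 5.18 and 7.14. Ebf1, which acts just upstream of Pax5, gave 392 and 659 (percentile 67.4). Foxo1, which activates Rag and Il7r transcription, gave 4806 and 5673. Ikzf1, which encodes Ikaros, gave 6083 and 5787 from the brighter of 2 probes, which differed 26.6-fold. Myb, a factor of progenitors, gave 13279 and 16386. The median percentile over the list was 78.5.

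The E proteins differed in signal. Tcf4 (percentile 97.3) lay above Tcf12 (4154 and 4845, 86.3) and Tcf3 (2672 and 3014, 82.3) by the brightest probe. The second Tcf4 probe, at 2587 and 3070, was near the brightest Tcf3 probe and below that of Tcf12. The second Tcf3 probe gave 204 and 262. Among the Id proteins, which inhibit E proteins, Id3 gave 1482 and 1990 and Id2 gave 939 and 934. Id1 gave 28.7 and 32.1, and Id4 was not well above background.

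The IRF family had the highest median percentile of the 10 factor groups, at 88.4, with 9 of 9 detected and 4 in the top 10%. It kept that place under 9 of 12 alternatives; the Krueppel-like factors were highest with the mean of probes and with the dimmest probe, and the STAT factors with the authors' values. After Irf8 came Irf1 (32896 and 38264), an early interferon response factor, Irf3 (17542 and 18023), which acts downstream of nucleic acid sensors, and Irf9 (14147 and 14840), the DNA-binding subunit of ISGF3. Irf4, a factor of plasma cells and of light chain rearrangement, gave 939 and 797. Among 13 ETS factors, all were detected. Spib was the brightest, and its relative Spi1, which encodes PU.1, gave 130 and 129 from a single probe (percentile 57.2). For STAT factors, Stat2 gave 19160 and 26502 and Stat3 gave 11379 and 11692.

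The C/EBP family was detected in full, 6 of 6. Cebpa, whose enhancer is floxed but present in these mice, gave 1271 and 927 (percentile 73.8). Cebpd, a stress-induced member, was the brightest at 8464 and 7787, Cebpb gave 901 and 1022 and Cebpe, which acts late in granulocytes, gave 273 and 219. The 3 GATA genes lay near the detection limit, with a median percentile of 46.6. Gata1 gave 26.6 and 41.4, Gata2 35.6 and 34.5, and Gata3, the T-cell and ILC2 factor, 18.7 and 32.0. Among Krueppel-like factors, Klf2, which keeps lymphocytes quiescent, gave 19464 and 19217. The erythroid Klf1 was not well above background.

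**Figure D4:**
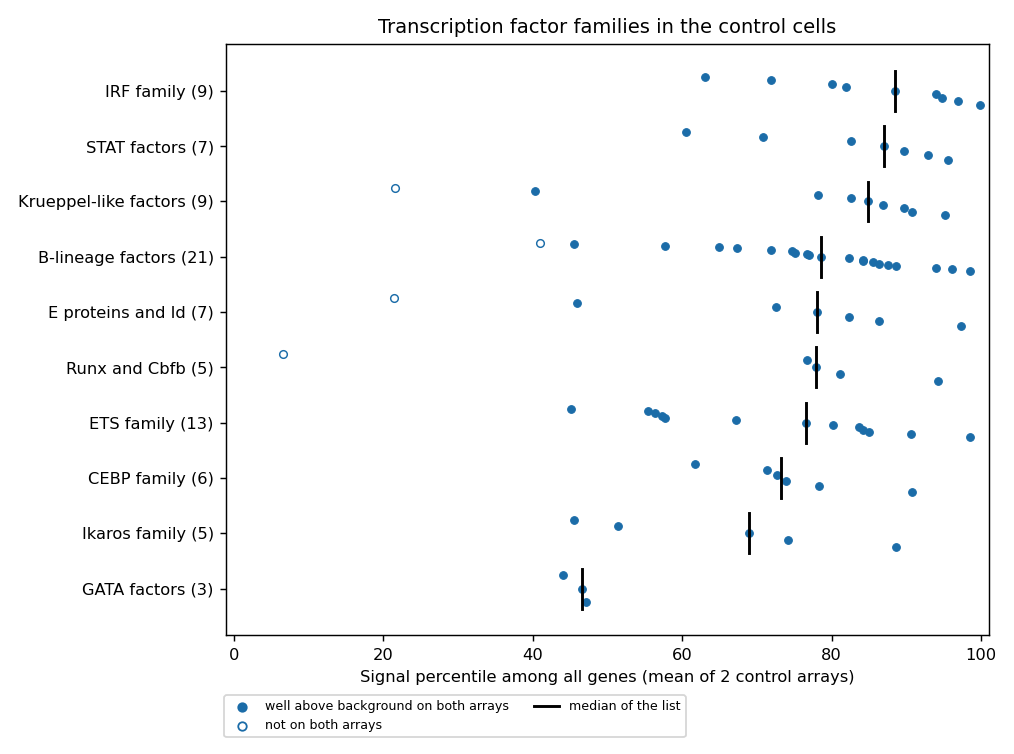
Signal percentile among all genes, as the mean of the 2 control arrays, for the members of 10 transcription factor groups, with the number of genes in brackets; filled circles were detected on both arrays, open circles were not, and bars are medians. The IRF family has its median furthest right at 88.4 and the GATA factors furthest left at 46.6.

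Of 34 cytokine receptor genes, 33 were detected and 12 lay in the top 10%, with a median percentile of 86.6. Without the repeat-word probes of Csf3r and Il15ra the median of the other 32 was 85.6. The shared beta chain of the IL-3, IL-5 and GM-CSF receptors gave 23681 and 27250 (Csf2rb), and Csf2rb2, the mouse beta chain for IL-3 alone, gave 38875 and 46919. Il3ra, the alpha chain for IL-3, gave 6525 and 8702, and Csf2ra, the alpha chain for GM-CSF, gave 14239 and 16898. Crlf2, the receptor for TSLP, gave 24503 and 27093. The interferon receptor chains gave 8217 and 9423 (Ifnar1) and 17116 and 18143 (Ifnar2). Kit, the receptor for stem cell factor, was dimmer, at 410 and 453, and Epor was not well above background.

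Chemokine receptors were less bright, with a median percentile of 68.6 and 14 of 17 detected (82.4%, against 58.4% of all genes). Ccr9, the gut-homing receptor of pDCs and thymic progenitors, gave 33853 and 39227. Cxcr3, which follows interferon-induced chemokines, gave 13475 and 15884, and Cxcr4, the marrow retention receptor, gave 3371 and 2809. Ccr7 gave 1296 and 1271, and Ccr1 was not well above background. Among the Toll-like receptor genes and their partners, 11 of 14 were detected (78.6%), and the brightest belonged to the endosomal receptors. The chaperone Unc93b1 gave 49465 and 53756, Tlr12 gave 24386 and 27146 and Tlr7, which senses single-stranded RNA, gave 7531 and 7450. Tlr9, the receptor for unmethylated CpG DNA, gave 1420 and 1458, and Tlr3, which senses double-stranded RNA, was not well above background. Tlr4, the receptor for lipopolysaccharide, gave 36.9 and 48.9. Of the Notch receptors, Notch2 gave 5723 and 5729 and Notch1, which directs the T lineage, gave 319 and 249.

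Genes of other blood lineages were mostly dimmer, but every list had detected members. In the neutrophil list 11 of 17 were detected on both arrays, with a median percentile of 50.8, near the 58.4% and 49.9 over all genes. Ranked among genes named through RefSeq alone, this median was 43.7. The primary granule genes of early myeloid cells were detected, with Mpo as above, Ctsg (cathepsin G) at 3982 and 5826, Elane (neutrophil elastase) at 1085 and 1186, and Prtn3 (proteinase 3) at 388 and 534. The later granule genes Ltf, Mmp8, Mmp9 and Ngp were not well above background on either array, and S100a8 and S100a9, abundant in mature neutrophils, gave 46.1 and 39.1, and 102 and 98.8. In the monocyte list 14 of 16 were detected (87.5%), none in the top 10%. Its median percentile was 73.9, not far below the 78.4 of the pre-B receptor and B surface list. Csf1r, the receptor for M-CSF, gave 3597 and 3757, Ccr2 gave 4737 and 3947, and Lyz2 gave 141 and 76.5, while the macrophage gene Mertk was not well above background.

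In the T-cell list 14 of 15 were detected, with a median percentile of 63.2, or 60.2 over the 14 genes without the Cd4 repeat-word probe. Lck, a kinase of T-cell receptor signalling, gave 2717 and 2883, Cd8a, which some dendritic cells also carry, gave 1504 and 1129, and the receptor chain gene Cd3e gave 532 and 475. Bcl11b, a factor of T-cell commitment, gave 17.4 and 15.3. In the NK list 9 of 13 were detected (69.2%), with a median percentile of 50.7, again near that of all genes. Ranked among genes named through RefSeq alone, this median was 43.6. Klrd1, which encodes CD94, was bright at 14797 and 14586, while Ncr1, which encodes NKp46, was not well above background and Klrb1c, which encodes NK1.1, gave 30.1 and 15.1.

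The erythroid list had the lowest median percentile of the 14 lineage lists, at 41.7, with 5 of 11 detected against 58.4% of all genes. It was the lowest under 6 of 12 alternatives; the megakaryocyte list was the lowest under 5, among them leaving out control replicate 1 (43.1 against 47.5), and the stroma list under 1. Klf1, Rhag and Epor were not well above background on either array. Tfrc, the transferrin receptor that dividing cells carry, was the exception at 7526 and 9538. The megakaryocyte list (6 of 10) and the mast cell, basophil and eosinophil list (7 of 10) had shares detected near that of all genes, with median percentiles of 45.1 and 47.7. Itga2b was not well above background, and Pf4, a platelet granule chemokine, gave 221 and 79.0. The mast cell gene Fcer1a was not well above background. In the stroma and endothelium list 8 of 10 were detected (80%, against 58.4% of all genes). Cdh5, the VE-cadherin gene, gave 10309 and 7407, but the marrow stroma genes Cxcl12 and Col1a1 were not well above background. The plasma cell list had a median percentile of 71.1. Of its members, Xbp1, the regulator of the secretory machinery, gave 58007 and 60919. Mzb1 gave 7961 and 9887, and Sdc1, which encodes CD138, gave 733 and 718.

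In the stem and progenitor list 13 of 16 were detected (81.25%, against 58.4% of all genes). Ly6a, which encodes Sca-1, gave 15214 and 21570, and Meis1, a homeobox factor of stem cells, gave 1505 and 1226. Cd34 gave 1819 and 2876 from the brighter of 2 probes, which differed 120-fold. Mecom, Tek and Slamf1, genes of long-term stem cells, were not well above background. The part of other cell types in any of these signals was not tested.

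Between the arrays, r across 18493 genes detected on both was 0.996 on the log2 scale (genes are not independent replicates), and the SD of the log2 differences was 0.29, or 0.21 per array. After scaling to each array's 75th percentile, 189 genes, or 1.02%, were at least 2-fold apart. Of these, 103 (0.557%) were brighter on control replicate 1 and 86 (0.465%) on control replicate 2. With 1 array on each side these differences have no test, and animal and array cannot be told apart. The labelled sex does not match the sex-linked genes. Xist, which is transcribed from the inactive X of females, was not well above background on either array, and the Y-linked Eif2s3y (4917 and 6840) and Ddx3y (3116 and 3474) were detected on both, also on the array labelled female.

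The genes of proliferation and of the interferon response differed together between the arrays. Over all detected genes, the log2 difference of control replicate 2 from control replicate 1 had a median of -0.03, and 41.5% of genes were higher on control replicate 2. All 20 genes of mitosis and S phase were higher there, with a median log2 difference of 0.42. Mki67, the proliferation antigen, gave 12575 and 20229, Birc5, the mitotic survivin gene, 11863 and 19076, and Ccnb1, cyclin B1, 1560 and 2732. Of 24 interferon-stimulated genes, 22 were higher on control replicate 2, with a median of 0.37. Rtp4 gave 157 and 362, Oas1a 555 and 1169, and Ifit1 46.3 and 97.8. Rtp4 and Oas2 (156 and 343) were the 2 members at least 2-fold apart after scaling.

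At the level of the whole list, most interferon-stimulated genes were of middle brightness in both samples, with a median percentile of 74.8. Mx1, the gene whose promoter drives the Cre used in the study, gave 3685 and 4904, Isg15 gave 5996 and 8862, and Bst2 was the brightest. The genes for the interferons themselves were near the detection limit. Ifna5 gave 50.9 and 48.5, Ifna1 gave 44.3 and 52.3, Ifna4 was not well above background and Ifnb1 was detected on 1 of 2 arrays.

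Of all detected genes, 58.5% were higher on control replicate 1, and the lineage lists are set beside that share. Of 14 detected monocyte genes 11 were higher there, with a median log2 difference of -0.36 (-0.20 with the authors' values and -0.24 with the mean of probes). The lysozyme genes gave 1637 and 768 (Lyz1) and 141 and 76.5 (Lyz2). Of 9 detected NK genes 8 were higher on control replicate 1, with a median of -0.28, and Gzma, a cytotoxic granule protease, gave 195 and 60.8, a log2 difference of -1.84. Of the 14 detected T-cell genes 10 were higher on control replicate 1, with a median of -0.16, which was -0.05 with the authors' values, -0.10 with the mean of probes and -0.11 without repeat-word probes. Of the 31 pDC genes 24 were higher on control replicate 1, with a median of -0.09, and none was 2-fold apart. With quantile normalization 17 were higher there, with a median of -0.018, and with the authors' values the median was 0. The 5 detected erythroid genes were all higher on control replicate 2, with a median of 0.18 (0.052 with normexp, and 0.48 with 4 of 5 higher there with the mean of probes). Beside the mitosis and interferon genes, the surrogate light chain genes were higher on control replicate 2, with log2 differences of 0.56 for Vpreb1, 0.76 for Igll1 and 0.61 for Vpreb2.

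**Figure D5:**
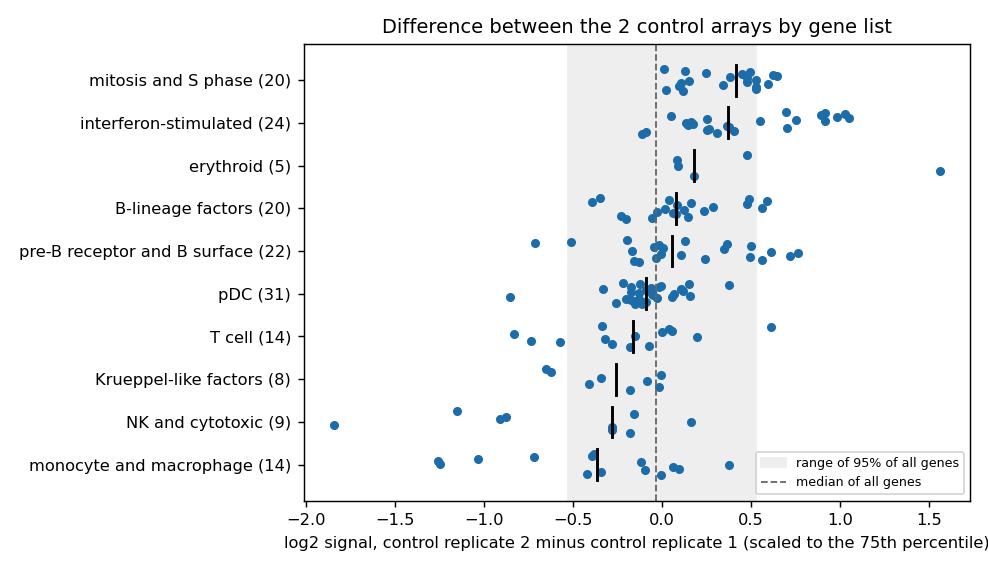
log2 signal of control replicate 2 minus control replicate 1, after scaling to the 75th percentile, for the genes of 10 lists detected on both arrays, with their number in brackets; bars are list medians, the grey band holds 95% of all detected genes and the dashed line is their median of -0.03. The mitosis genes and 22 of the 24 interferon-stimulated genes lie right of the dashed line, and most monocyte and NK genes lie left of it.

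Among genes detected on both arrays, those furthest apart were mostly of low signal. Slc15a2, a peptide transporter, gave 328 and 45.3, a log2 difference of -3.01, and the kappa variable gene Igkv5-39 gave 162 and 27.7 (-2.71). Alpl, the alkaline phosphatase of bone, gave 70.4 and 17.4 (-2.18), the inducible heat shock gene Hspa1a gave 114 and 29.9 (-2.10) and Fabp4, a lipid carrier of fat and endothelium, gave 64.5 and 17.7 (-2.03). In the other direction, Grm4 gave 23.0 and 105 (2.03) and the heavy-chain variable gene probe Igh-VJ558 gave 1006 and 4052 (1.85). The thymic protease Prss16 gave 144 and 565 (1.81). The 2 Grm4 probes differed 16.8-fold and the 5 Igh-VJ558 probes 488-fold, while Prss16 had 1 probe. The authors' log2 values were 5.9 and 6.3 for Grm4, 7.4 and 8.6 for Igh-VJ558, and 7.5 and 9 for Prss16. Igh-VJ558 was the brightest of these on control replicate 2. The globin genes were also higher on control replicate 2, with 196 and 647 for Hba-a1, 977 and 2729 for Hba-a2 and 166 and 532 for Hbb-bt, although most genes of the erythroid list were not detected.

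The brightest genes of all were housekeeping genes, ribosomal protein genes and repeat-word probes. Of the 100 genes with the highest mean percentile, 39 had no ordinary gene name, 24 were read by repeat-word probes and 26 encoded ribosomal proteins, and these groups can overlap. Actb, the cytoplasmic actin gene, was the brightest at 451674 and 458381. Among the 25 brightest genes with ordinary names, 10 were read by repeat-word probes (Exosc2, Ttc38, Slc10a1, Rn4.5s, Elk1, Kctd14, F10, Medag, Ndor1 and Endov) and 9 were ribosomal protein genes. Irf8 was the one lineage regulator among these 25. Tyrobp, which encodes the signalling adaptor DAP12 that pairs with Siglech, gave 230590 and 244489, and ranked 78th and 68th of all genes. It was among the 40 brightest genes with ordinary names once those read by repeat-word probes were left out.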

How the data were processed

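RNA of sorted preproB cells from 2 control samples was measured on 1-colour (Cy3) Agilent arrays. Per the file headers, Agilent Feature Extraction 10.7.3.1 wrote the intensity and flags of each spot in the files the authors deposited, and probe positions refer to mm9. The authors also deposited a log2 table, whose normalization is not stated in the sources used here. Both of its columns have a median of 6.5, and across 25098 genes they correlated at 0.9999 with the log2 median signals of the arrays. The 2 columns of the enhancer-deleted arrays were not used here.

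Control spots and spots marked as non-uniform or as population outliers (126 and 140) were left out, as were 5 probes without a usable value, and spots of a probe were averaged. Of 39424 probes, 26575 were named by accession through RefSeq (GRCm38.p6, names alone) and 2891 of these got an updated symbol. A gene took its brightest probe. Differences between arrays used log2 signal minus each array's 75th percentile. Of 414 listed genes, 410 were on the array; Ly6c2, Ly6g, Gpr97 and Hbb-b1 were not matched by name. Genes were named from the 8 markers, the highest 5 and lowest 4 members of each of 40 lists, members needed for their roles, the 25 brightest genes, the 10 furthest apart each way and the sex-linked genes, and not all genes that this rule takes are printed. The members and lists were chosen with earlier results of these data known. The rule for repeat words was chosen after seeing the data. Scripts were tested on simulated arrays. Alternatives, with limma 3.58.1 under R 4.3.3, were normexp (offset 50), quantile and median scaling, median signal, other detection rules, mean or dimmest probe, probes in place of genes, marked spots kept, no filter, each array left out and the authors' values; leaving out repeat-word probes and ranking among RefSeq names were added after seeing the data. One group of 2 samples allows no test between conditions. Values of some listed genes are not reported here.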

Additional observations from a re-analysis of the deposited data

How the results depend on the processing

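No paired analysis was possible because 1 group of 2 samples enters and nothing was tested. The count of genes detected on both arrays stayed within 1.5 times of 18493 under every alternative run, from 17249 to 22449, and was 18716 to 19302 with 1 array left out. The count of genes at least 2-fold apart (189) fell to 95 with normexp background correction and 104 with the authors' deposited log2 values, and was 1472 with no filter on dim probes, where the added genes were not detected on both arrays. The median percentile of the 8 markers (97.3) was 97.5 with normexp, with the median signal and with probes in place of genes, 96.7 with the mean of probes, 92.5 with the dimmest probe, 96.8 with the authors' values, 95.4 among detected genes, 97.6 without repeat-word probes and 98.3 among RefSeq names, and 97.3 with either array left out. That of the pDC list (96.2) was 96.1 with normexp and with the median signal, 94.9 with the mean of probes, 94.1 with the dimmest probe, 94.8 with the authors' values, 93.5 among detected genes, 96.5 with probes in place of genes, 96.6 without repeat-word probes and 97.4 among RefSeq names. It was the highest of the 14 lineage lists under all 12 alternatives, but the lists were chosen with earlier results of these data known. That of the pre-B receptor and B surface list (78.4) was 81.3 with the mean of probes, 82.0 with the dimmest probe, 81.2 with the authors' values, 63.1 among detected genes and 74.4 among RefSeq names, and 76.6 to 79.1 with 1 array left out. Its median log2 difference between the arrays turned from 0.06 to -0.0043 with normexp, the 1 reversal found. Of the values not listed here, 138 moved by less than the spread between the arrays and 88 moved by more. Signals under 13.7 to 14.4 have no measured level, and the cause of each change was not tested.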
